A study of Mus musculus with 6 samples.

Results

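To ask whether loss of *Txnip* altered the VEGF system of the liver sinusoid, the RNA of its ligands and receptors was followed in LSECs of *Txnip*-/- and WT mice. The 9 genes were taken by symbol from the 23282 rows of each count file. The 5 receptors are *Kdr*, *Flt1*, *Flt4* and the neuropilins *Nrp1* and *Nrp2*, and the 4 ligands are *Vegfa*, *Vegfb*, *Vegfc* and *Pgf*. All 9 were above the filter on low counts. LSECs came from whole-body *Txnip*-/- mice on a C57BL/6J background (3 libraries) and from C57BL/6J control mice (3 libraries, WT), with no transgene or Cre in either group. In the study's methods LSECs are purified from the non-parenchymal fraction with anti-CD146 beads, and LSECs so selected are cultured in an endothelial growth medium. The text does not state whether the sequenced RNA came from fresh or cultured cells, the age of these mice, or whether each library is a separate mouse. The p-values therefore measure the spread between libraries, which may be technical.

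VEGF ligands are secreted dimers that bind receptor tyrosine kinases on endothelial cells. VEGFA signals mainly through VEGFR2, the product of *Kdr*, and it also binds VEGFR1, the product of *Flt1*, with high affinity but weak kinase output. Of these kinases, VEGFB and placental growth factor, encoded by *Pgf*, bind VEGFR1 only, while VEGFC signals through VEGFR3, the product of *Flt4*. The neuropilins are co-receptors that hold VEGF ligands and class 3 semaphorins beside these receptors. In the liver, VEGFA from hepatocytes and stellate cells maintains LSEC fenestrae, and VEGFR3, confined to lymphatic vessels in many adult organs, is also made by LSECs.

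Promoters are shown for 4 genes, the ligands *Pgf* and *Vegfc*, whose levels did not overlap between the genotypes, and the receptors *Flt1*, which binds the product of *Pgf*, and *Kdr*, the main VEGFA receptor. All 9 genes had an entry in RefSeq on GRCm38.p6 (11 entries, with 2 each for *Vegfa* and *Pgf*, of which the first is shown for *Pgf*). Each sequence runs 5′ to 3′ from 250 bases before to 50 after the annotated start, and capitals mark matches on either strand to the motifs searched.
Pgf (chr12:85177264-85177563, minus strand): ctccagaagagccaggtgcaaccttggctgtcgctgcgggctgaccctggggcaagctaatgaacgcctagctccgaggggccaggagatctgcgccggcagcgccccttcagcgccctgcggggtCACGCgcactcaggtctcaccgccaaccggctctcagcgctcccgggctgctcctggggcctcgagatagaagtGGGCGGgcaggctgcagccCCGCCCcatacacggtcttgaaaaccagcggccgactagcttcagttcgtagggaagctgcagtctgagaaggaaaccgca
Vegfc (chr8:54077282-54077581, plus strand): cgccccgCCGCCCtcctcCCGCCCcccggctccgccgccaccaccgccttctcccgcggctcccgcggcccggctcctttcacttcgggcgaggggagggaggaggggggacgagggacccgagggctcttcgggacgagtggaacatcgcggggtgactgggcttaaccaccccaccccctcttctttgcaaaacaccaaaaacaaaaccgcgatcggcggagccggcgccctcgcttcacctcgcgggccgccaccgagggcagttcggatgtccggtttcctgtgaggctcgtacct
Flt1 (chr5:147725962-147726261, minus strand): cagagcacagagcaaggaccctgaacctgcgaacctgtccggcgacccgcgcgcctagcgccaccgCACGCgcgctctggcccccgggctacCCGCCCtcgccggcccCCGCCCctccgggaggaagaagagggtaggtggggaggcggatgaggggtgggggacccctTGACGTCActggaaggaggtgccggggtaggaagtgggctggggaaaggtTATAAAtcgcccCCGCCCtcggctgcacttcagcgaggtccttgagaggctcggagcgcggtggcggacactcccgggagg
Kdr (chr5:75978406-75978705, minus strand): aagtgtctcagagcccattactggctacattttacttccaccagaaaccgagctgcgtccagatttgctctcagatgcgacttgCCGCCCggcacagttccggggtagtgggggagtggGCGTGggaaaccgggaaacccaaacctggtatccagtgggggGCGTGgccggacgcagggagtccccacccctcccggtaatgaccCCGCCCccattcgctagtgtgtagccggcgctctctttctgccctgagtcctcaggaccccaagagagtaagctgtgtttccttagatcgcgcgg

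The motifs were the GC box (GGGCGG), the TATA box (TATAAA), the cyclic AMP response element (TGACGTCA), the hypoxia response cores ACGTG and GCGTG, and the AP-1 site (TGACTCA). The GC box, held by 35.7% of 32851 promoters, was matched 2 times each in *Pgf*, *Vegfc* and *Kdr* and 3 times in *Flt1*. Only *Flt1* among the 4 had a TATA box (13.6% of promoters) and a cyclic AMP response element (1.79%). GCGTG (32.4%) was matched once each in *Pgf* and *Flt1* and 2 times in *Kdr*, and ACGTG (19.6%) and the AP-1 site (5.2%) in none of the 4. No matches overlapped in these sequences.

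The libraries held 9147764 to 10193952 counts in *Txnip*-/- LSECs and 9699159 to 9951078 in WT LSECs. *Txnip* was at 20.4 to 30.0 CPM in the *Txnip*-/- libraries and 185 to 211 CPM in the WT libraries (log2 fold change -3.02 with a standard error (SE) of 0.14, adjusted p = 6.94e-10, edgeR), which matched the labels. CPM is a library's counts scaled to a common size with TMM factors. Because QuantSeq reads start near the polyadenylated end, a count stands for a transcript whatever its length. WT replicate 3 stood apart from the other WT libraries. Its counts differed from WT replicates 1 and 2 by a chi-square per degree of freedom of 37.0 and 40.2, and from each *Txnip*-/- library by only 13.3 to 17.1. Its ribosomal precursor row *Rn45s* took 17.8% of the counts, close to the 16.8% to 18.6% of the *Txnip*-/- libraries, against 10.03% and 9.68% in WT replicates 1 and 2. This row was among the counts compared by chi-square, so its share also enters those distances, which were not computed without it. Values that rest on WT replicate 3 are therefore also given without that library, and from a fit in which WT replicates 1 and 2 had their own term. That fit, an alternative chosen after seeing the data, sets the *Txnip*-/- libraries against WT replicate 3 alone.

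The neuropilins were the most abundant of the 9 genes. In WT LSECs the mean levels were 616 CPM for *Nrp2*, 494 for *Nrp1*, 377 for *Kdr*, 134 for *Flt4*, 106 for *Pgf*, 95.6 for *Flt1*, 75.3 for *Vegfb*, 30.7 for *Vegfa* and 2.99 for *Vegfc*. The ranges of *Nrp1* and *Kdr* and those of *Pgf* and *Flt1* overlapped among the WT libraries, and the other neighbours in this order did not. In *Txnip*-/- LSECs *Pgf* stood above *Flt4* with overlapping ranges, *Flt1* and *Vegfb* overlapped, and the remaining order was the same. *Nrp2* exceeded 98.5% of the 11583 tested genes in mean level, *Kdr* 96.8%, *Pgf* 86.9%, *Vegfa* 56.9% and *Vegfc* 16.8%. The neuropilins and *Kdr* thus lay above every ligand in both genotypes, while *Flt1* and *Flt4* were near *Pgf*.

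**Figure D1:**
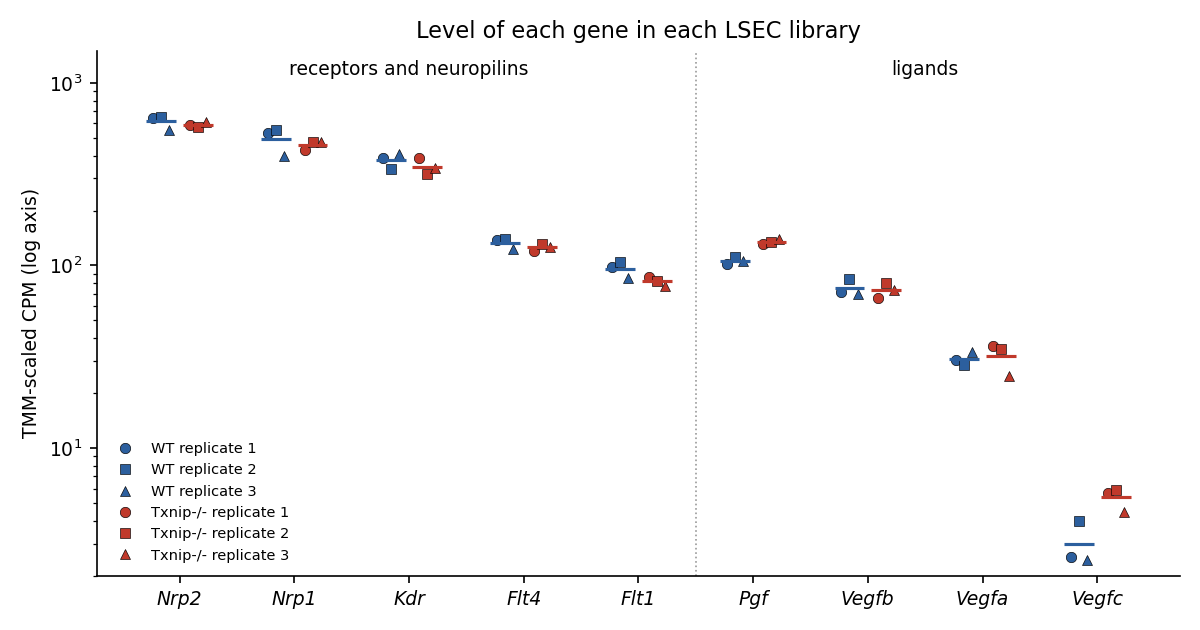
Each point is the TMM-scaled CPM (log axis) of a gene in a library, blue for WT and red for *Txnip*-/-, with replicates 1, 2 and 3 as circles, squares and triangles and a line at the mean of 3. *Pgf* and *Vegfc* are the genes whose genotypes do not overlap, and WT replicate 3 is the lowest library for *Nrp1* and *Nrp2*.

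None of the 9 genes was called, where a call takes a fold change beyond 1.3 together with an adjusted p below 0.05 (edgeR's quasi-likelihood test). None was called by DESeq2 or limma-trend either. In all, 167 of 11583 tested genes, or 1.44%, were called. Of the 9 genes, 1 (*Pgf*) had an unadjusted p under 0.05, as had 1336 of all tested genes (11.5%), and with DESeq2 *Pgf* passed an adjusted p of 0.05 (0.0433) at a fold change under 1.3. All 5 receptors had a lower mean in *Txnip*-/- LSECs (log2 fold changes -0.22 to -0.06, median -0.11), and 3 of the 4 ligands a higher one (-0.03 to 0.84, median 0.20), against a median of -2.75e-05 over all tested genes. The lower means of *Flt4*, *Nrp1* and *Nrp2* turned to higher ones (0.04, 0.21 and 0.10) in the fit where WT replicates 1 and 2 had their own term, and the ligands *Vegfa* and *Vegfb* changed sign there too (-0.069 and 0.075). For *Kdr*, *Flt4*, *Nrp1*, *Nrp2* and *Vegfb* the 95% interval of the change lay within 1.3-fold in either direction.

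**Figure D2:**
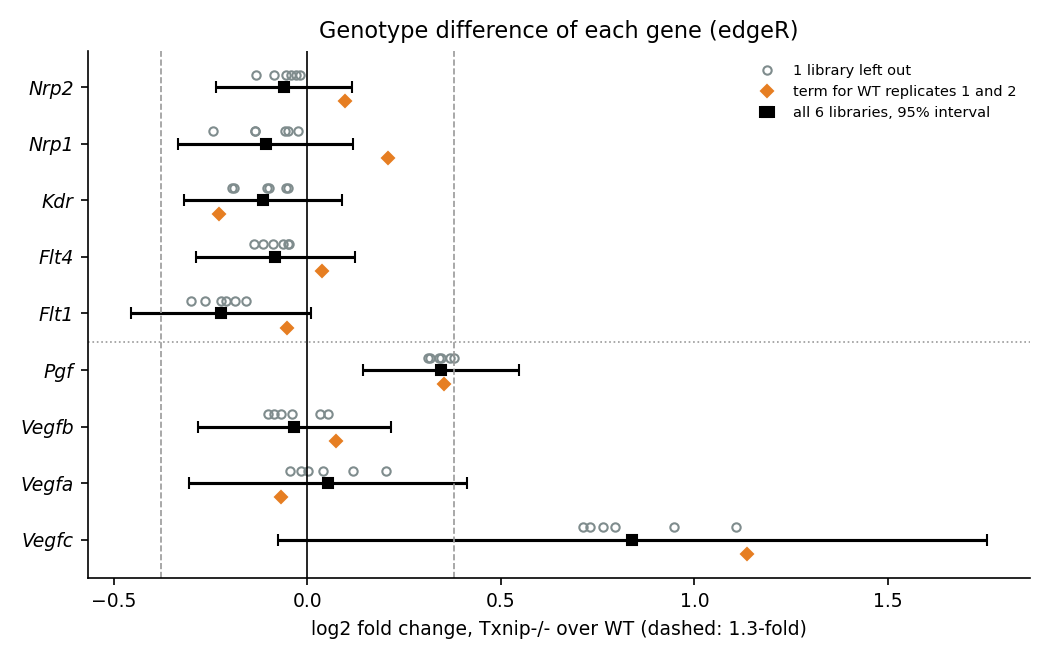
Black squares give the log2 fold change of *Txnip*-/- over WT with its 95% interval (edgeR, n = 3 libraries per genotype), grey circles the values with each library left out, and orange diamonds the fit where WT replicates 1 and 2 had their own term. Dashed lines mark 1.3-fold. *Pgf* stays between 0.31 and 0.38 in the fits shown, while the diamonds of *Flt4*, *Nrp1*, *Nrp2*, *Vegfa* and *Vegfb* lie across 0 from their squares.

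Among the receptor tyrosine kinases, *Kdr* was the most abundant. Its level was 386, 338 and 408 CPM in WT replicates 1, 2 and 3, and 386, 317 and 341 CPM in *Txnip*-/- replicates 1, 2 and 3. The genotypes overlapped, with *Txnip*-/- replicate 1 as high as WT replicate 1 (log2 fold change -0.11, SE 0.10, 95% interval of the fold 0.802 to 1.06, adjusted p = 0.727, edgeR). The value for *Kdr* was -0.055 without WT replicate 3 (adjusted p = 0.863) and -0.23 with the separate term (adjusted p = 0.346). *Flt1*, whose product binds VEGFA and placental growth factor, was at 97.8, 104 and 85.0 CPM in the WT libraries and at 86.5, 81.9 and 77.4 CPM in the *Txnip*-/- libraries. Only WT replicate 3 fell within the range of the *Txnip*-/- libraries (log2 fold change -0.22, SE 0.11, fold 0.729 to 1.01, adjusted p = 0.456, edgeR). Without WT replicate 3 the value was -0.30 (adjusted p = 0.171), and with the separate term it was -0.05.

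In GRCm38, *Flt1* spans 147561604 to 147726011 of chromosome 5, minus strand (GENCODE M21), and its 2 protein-coding transcripts end 73555 bases apart. The shorter ends inside the gene, as the transcript of the soluble, ligand-trapping receptor does, and a count per gene does not separate the ends. *Kdr*, on the same chromosome and strand from 75932827 to 75978458, has a single protein-coding transcript of 30 exons. *Flt4* (chromosome 11, 49609263 to 49652739, plus strand), which encodes the VEGFC receptor, was at 138, 140 and 123.01 CPM in the WT libraries and at 120, 132 and 127 CPM in the *Txnip*-/- libraries. Its log2 fold change was -0.08 (SE 0.10, 95% interval of the fold 0.819 to 1.09, adjusted p = 0.839, edgeR), and it was -0.14 without WT replicate 3 (adjusted p = 0.56). Lymphatic endothelial markers, of which 2 of 5 were above the filter on low counts, summed to between 3.72 and 6.28 CPM in all 6 libraries. Whether lymphatic cells have a part in the *Flt4* values was not tested.

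The neuropilins differed more among the WT libraries than between the genotypes. *Nrp1* (chromosome 8, 128358604 to 128503363, plus strand) was at 535 and 550 CPM in WT replicates 1 and 2 but at 397 CPM in WT replicate 3, and at 427, 475 and 473 CPM in the *Txnip*-/- libraries. *Nrp2* (chromosome 1, 62703285 to 62818695, plus strand) was at 644, 650 and 552 CPM in the WT libraries and at 586, 577 and 609 CPM in the *Txnip*-/- libraries. For both genes every *Txnip*-/- library thus lay above WT replicate 3 and below WT replicates 1 and 2. The log2 fold change of *Nrp1* was -0.11 (SE 0.11, adjusted p = 0.788, edgeR), with a 95% interval of the fold from 0.793 to 1.09. It was -0.24 without WT replicate 3 (adjusted p = 0.0737) and 0.21 with the separate term (adjusted p = 0.31). For *Nrp2* it was -0.06 (SE 0.08, fold 0.849 to 1.08, adjusted p = 0.869, edgeR), and it was -0.13 without WT replicate 3 (adjusted p = 0.36). The 6 protein-coding transcripts of *Nrp2* end up to 21714 bases apart and were counted together.

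The summed level of 12 LSEC markers, of which *Lyve1* was the largest part, was lowest in WT replicate 3 among the WT libraries, as were the neuropilins. Marker sums are CPM of a library's total counts, without TMM factors. The sum was 5903 and 6242 CPM in WT replicates 1 and 2, 3547 CPM in WT replicate 3 and 3122 to 3602 CPM in the *Txnip*-/- libraries. *Lyve1*, a hyaluronan receptor and the most abundant marker of the list, was at 3482, 3780 and 1520 CPM in the WT libraries. The lower sum of WT replicate 3 was thus mostly that of *Lyve1*. *Ehd3*, the next most abundant, was at 694, 727 and 749 CPM in the WT libraries, highest in replicate 3. *Kdr* did not follow the order of the sum, since WT replicate 3 held its highest level. The *Kdr*/*Nrp1* count ratio, chosen after seeing the values, was 1.03 in that library against 0.614 to 0.906 in the other 5 libraries. Whether the marker level has a part in the neuropilin values was not tested. In bulk RNA, fewer cells of a type and less RNA per cell cannot be told apart.

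**Figure D3:**
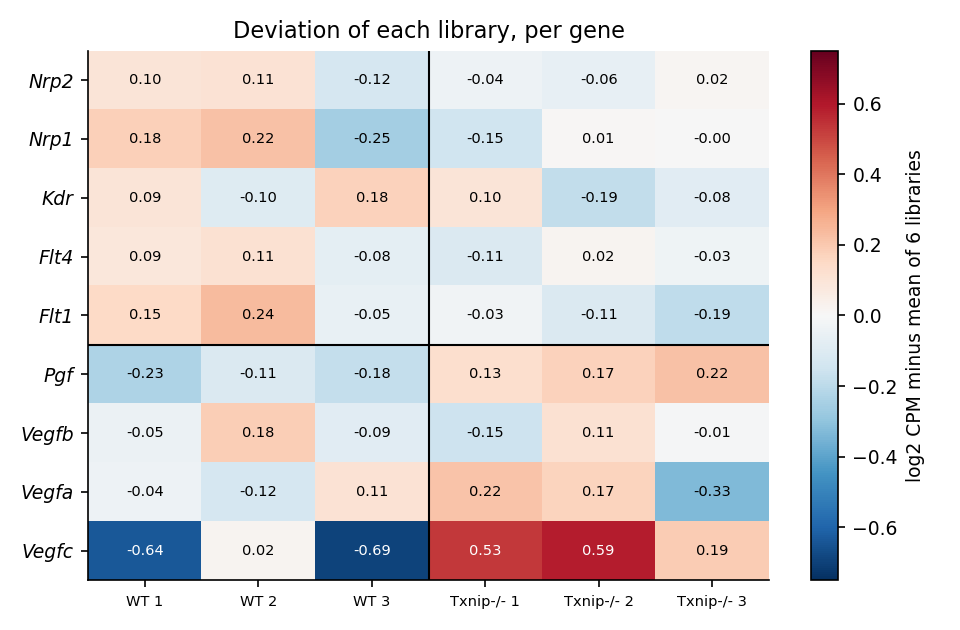
Each cell gives a gene's log2 CPM in a library minus its mean over the 6 libraries, with receptors above and ligands below the line. *Nrp1* deviates by 0.18 and 0.22 in WT replicates 1 and 2 and by -0.25 in WT replicate 3, whereas *Pgf* is below its mean in all WT libraries and above it in all *Txnip*-/- libraries.

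Among the ligands, *Pgf* had the smallest p of the 9 genes. Its level was 102, 111 and 106 CPM in WT replicates 1, 2 and 3, and 131, 135 and 139 CPM in *Txnip*-/- replicates 1, 2 and 3. The lowest *Txnip*-/- library exceeded the highest WT library. The log2 fold change was 0.34 (SE 0.10, 95% interval of the fold 1.11 to 1.46), and it did not pass (edgeR across all genes, adjusted p = 0.0954). Leaving out any library, it stayed between 0.31 and 0.38, and with the separate term it was 0.35. Over all alternatives the adjusted p ran from 0.0433 with DESeq2 to 0.412 without WT replicate 1. *Pgf* lies on chromosome 12 from 85166635 to 85177790 on the minus strand, and its 2 protein-coding transcripts end within 4 bases of each other.

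*Vegfc* (chromosome 8, 54077606 to 54187096, plus strand) was the least abundant, with 26, 42 and 23 counts in the WT libraries and 51, 58 and 42 counts in the *Txnip*-/- libraries. On the CPM scale these were 2.53, 4.001 and 2.43 against 5.69, 5.91 and 4.49, so that the genotypes did not overlap, although WT replicate 2 and *Txnip*-/- replicate 3 held the same raw count. The log2 fold change of 0.84 (SE 0.43, 95% interval of the fold 0.948 to 3.38) did not pass (adjusted p = 0.484, edgeR). Its interval is the widest of the 9. The 2 protein-coding transcripts of *Vegfc* end 6380 bases apart and were counted together. *Pgf* and *Vegfc* were the 2 of the 9 genes without overlap, both higher, where 8.43% of all tested genes had none and were higher and 8.94% had none and were lower.

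*Vegfa*, the main endothelial growth and permeability factor, was at 30.3, 28.5 and 33.4 CPM in the WT libraries and at 36.1, 34.9 and 24.7 CPM in the *Txnip*-/- libraries. The *Txnip*-/- libraries were split around the WT range, with replicates 1 and 2 above and replicate 3 below it. The log2 fold change was 0.05 (SE 0.17, 95% interval of the fold 0.809 to 1.33, adjusted p = 0.944, edgeR), and it was 0.20 without *Txnip*-/- replicate 3. Its 8 protein-coding transcripts end within 1865 bases and were counted together. *Vegfb*, a VEGFR1 ligand, was at 71.8, 84.1 and 69.8 CPM in the WT libraries and at 66.7, 80.2 and 73.7 CPM in the *Txnip*-/- libraries (log2 fold change -0.03, SE 0.12, fold 0.822 to 1.16, adjusted p = 0.95, edgeR). *Vegfa* lies on chromosome 17 (46016993 to 46032369) and *Vegfb* on chromosome 19 (6982473 to 6987651), both on the minus strand. The VEGFD gene, listed as *Figf*, had 1 to 14 counts per library in WT and 3 to 12 in *Txnip*-/- LSECs, down to below the floor of 3 counts.

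To set receptors against ligands without any scaling between libraries, counts were divided within each library. The 5 receptors together held 8.71, 7.82 and 7.40 counts per ligand count in WT replicates 1, 2 and 3, and 6.71, 6.18 and 6.71 in *Txnip*-/- replicates 1, 2 and 3. All *Txnip*-/- libraries lay below all WT libraries. On the log2 scale the ratio was 2.71 ± 0.07 (SD, n = 3) in *Txnip*-/- and 2.99 ± 0.12 (SD, n = 3) in WT LSECs, a difference of -0.29, and leaving out any library the difference stayed between -0.34 and -0.22. This sum over genes chosen with results known is a description and was not tested. *Pgf* made up 48.8% to 50.1% of the ligand counts in WT and 52.8% to 57.5% in *Txnip*-/- LSECs. With *Pgf* taken out of the ligands the ratios overlapped, at 14.8 to 17.2 in WT and 13.1 to 15.8 in *Txnip*-/- LSECs. With the neuropilins taken out of the receptors they did not, at 2.55 to 3.01 in WT and 2.07 to 2.48 in *Txnip*-/- LSECs.

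Ratios of single genes were compared with exact permutation tests over libraries (two-sided), which cannot go below p = 0.1 with 3 libraries against 3, and adjusted over 5 ratios. *Vegfc* per *Vegfa* count was 0.0836, 0.141 and 0.0728 in the WT libraries and 0.158, 0.17 and 0.182 in the *Txnip*-/- libraries (exact permutation p = 0.1, adjusted p = 0.5). *Pgf* per *Vegfa* was 3.17 to 3.91 and 3.63 to 5.64 (exact permutation p = 0.3), *Vegfb* per *Vegfa* 2.09 to 2.95 and 1.85 to 2.98 (exact p = 0.8), *Flt1* per *Kdr* 0.209 to 0.308 and 0.224 to 0.258 (exact p = 0.7), and *Nrp2* per *Nrp1* 1.18 to 1.39 and 1.21 to 1.37 (exact p = 0.7), in WT and *Txnip*-/- LSECs in turn. The ranges of these 4 ratios overlapped, with adjusted exact p-values of 0.75 to 0.8.

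Each ligand was also divided by a receptor it binds, a choice made after seeing the values and so given with no test. *Pgf* per *Flt1* was 1.04, 1.07 and 1.25 in the WT libraries and 1.51, 1.65 and 1.80 in the *Txnip*-/- libraries, 1.48 times higher without overlap. *Vegfc* per *Flt4* was 0.0184, 0.0285 and 0.0198 in the WT libraries and 0.0474, 0.0449 and 0.0354 in the *Txnip*-/- libraries, also without overlap. *Vegfa* per *Kdr* overlapped, at 0.0785 to 0.0844 in WT and 0.0724 to 0.11 in *Txnip*-/- LSECs. *Vegfb* per *Flt1* overlapped as well, at 0.734 to 0.821 in WT and 0.77 to 0.98 in *Txnip*-/- LSECs.

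**Figure D4:**
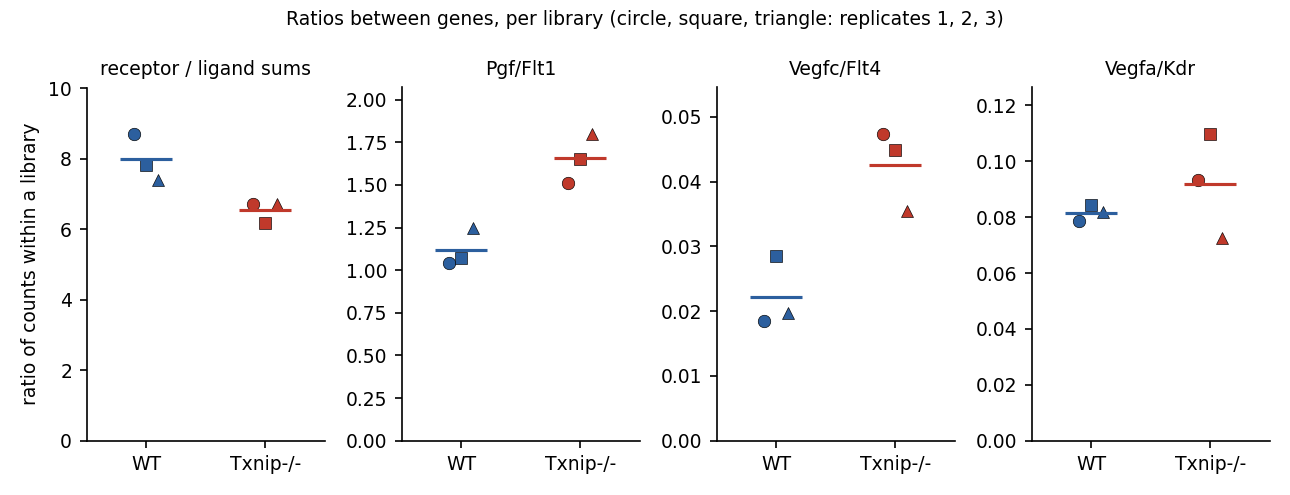
Each point is a ratio of counts within a library for WT (blue) and *Txnip*-/- (red), with replicates 1, 2 and 3 as circles, squares and triangles, a line at the mean and axes that start at 0. The receptor to ligand ratio is lower in every *Txnip*-/- library (6.18 to 6.71 against 7.40 to 8.71), *Pgf*/*Flt1* and *Vegfc*/*Flt4* are higher in every one, and *Vegfa*/*Kdr* overlaps.

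The wider pathway was read from 5 lists of genes. Of 21 VEGF-responsive endothelial genes 17 were tested, and 2 were called, both lower, where 0.932% of all tested genes were called lower. *Esm1*, which encodes the endothelial proteoglycan endocan and is induced by VEGFA in tip cells, was at 1128, 1080 and 1153 CPM in the WT libraries and at 720, 846 and 757 CPM in the *Txnip*-/- libraries. It fell without overlap (log2 fold change -0.53, SE 0.08, adjusted p = 0.000898, edgeR) and was called in every alternative fit, with values from -0.62 to -0.48. *Angpt2*, the Tie2 antagonist released by activated endothelium, fell from 803, 807 and 901 CPM to 681, 620 and 598 CPM (log2 fold change -0.40, SE 0.08, adjusted p = 0.0145, edgeR). *Angpt2* was no longer called without *Txnip*-/- replicate 2 or 3 (adjusted p = 0.091 and 0.118), nor without WT replicate 3, where the fold was below 1.3. The list as a whole went both ways, since 11 of its 17 genes had a higher mean and its median was 0.13. Without overlap, 6 of the 17 were higher and 3 lower, where 8.43% and 8.94% of all tested genes were.

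The list of VEGF-C maturation, the proteolytic steps that turn the VEGFC precursor into an active ligand, had 5 of 8 genes tested. *Ccbe1*, a secreted cofactor of this cleavage, was its single call and rose, where 0.509% of all tested genes were called higher. Its level was 4.77, 4.001 and 6.98 CPM in the WT libraries and 12.95, 13.9 and 10.2 CPM in the *Txnip*-/- libraries (log2 fold change 1.23, SE 0.30, adjusted p = 0.0475, edgeR). With any library but WT replicate 3 left out, its adjusted p was between 0.0679 and 0.248, and with the separate term the value was 0.82 (adjusted p = 0.373). *Furin*, a protease that cleaves the precursor, was at 159 CPM in WT and 158 CPM in *Txnip*-/- LSECs (log2 fold change -0.01, adjusted p = 0.985, edgeR). *Pcsk7*, a related protease, was at 23.0 and 25.4 CPM (adjusted p = 0.86), with a last exonic 500 bases that overlap an exon of *Tagln* on the opposite strand.

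Of 18 genes of hypoxia-inducible factors and their targets, which regulate *Vegfa* and *Flt1* among others, 17 were tested and *Ndrg1* was the only call, where 0.932% of all tested genes were called lower. *Ndrg1*, a hypoxia-responsive gene, fell from 96.6, 100 and 112 CPM in the WT libraries to 74.1, 75.5 and 68.6 CPM in the *Txnip*-/- libraries (log2 fold change -0.50, SE 0.11, adjusted p = 0.0214, edgeR). Its adjusted p was above 0.05 when any library but WT replicate 3 was left out, and its last exonic 500 bases overlap an exon of *Gm17035* on the opposite strand. *Adm*, the most abundant of the list, was at 1739 CPM in WT and 1464 CPM in *Txnip*-/- LSECs (log2 fold change -0.25, adjusted p = 0.459, edgeR), and *Pgk1* at 144 and 171 CPM (0.25, adjusted p = 0.283). The median of the list was -0.05.

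Of 48 genes that carry the signal from the VEGF receptors, 44 were tested and edgeR called none (16 higher and 28 lower in mean, median -0.08). An unadjusted p under 0.05 was held by 8 of them, where 11.5% of all tested genes had one. DESeq2 and limma-trend each called 1, *Sphk1*, a kinase that makes sphingosine 1-phosphate downstream of VEGFR2, named here after its values were seen. Its level was 29.8, 27.4 and 36.1 CPM in the WT libraries and 50.02, 44.1 and 47.0 CPM in the *Txnip*-/- libraries, without overlap (log2 fold change 0.60, SE 0.15, adjusted p = 0.0519, edgeR). *Cdh5*, the cadherin of endothelial junctions, was at 1101 CPM in WT and 1069 CPM in *Txnip*-/- LSECs (log2 fold change -0.04, adjusted p = 0.912, edgeR), and *Cdc42*, a small GTPase, at 761 and 772 CPM (0.02, adjusted p = 0.954). Of 12 semaphorins and plexins that pair with neuropilins, 7 were tested and neither edgeR, DESeq2 nor limma-trend called any (median -0.18), with 1 at an unadjusted p under 0.05 in each tool. The plexin gene *Plxna2* was at 374 CPM in WT and 342 CPM in *Txnip*-/- LSECs (-0.13, adjusted p = 0.6, edgeR) and *Plxnd1* at 78.8 and 82.9 CPM (0.07, adjusted p = 0.904).

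**Figure D5:**
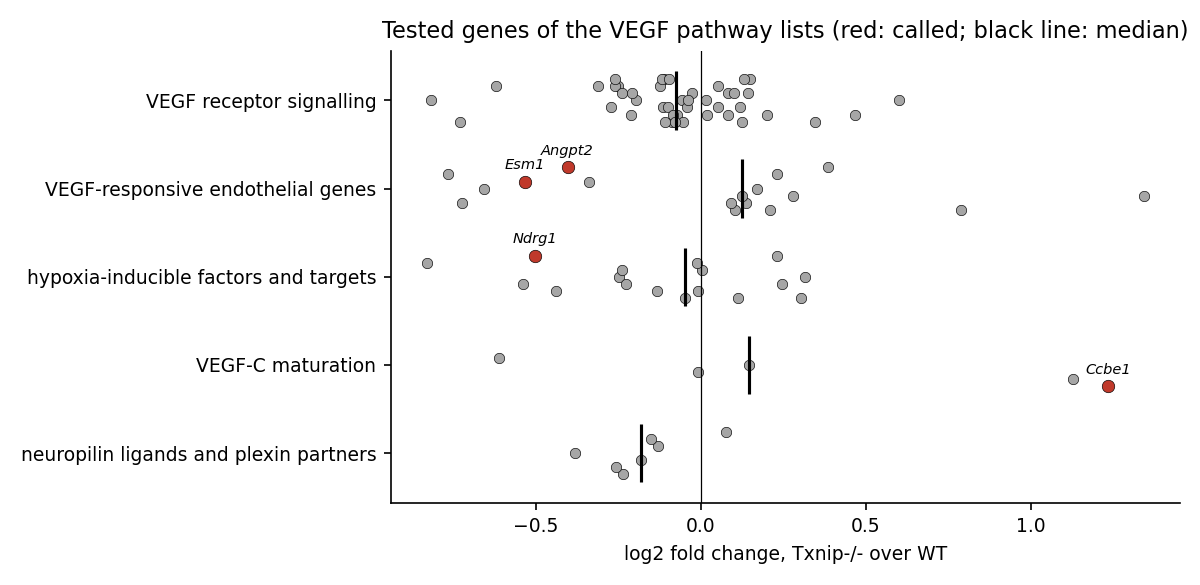
Each point is the log2 fold change of a tested gene (*Txnip*-/- over WT, edgeR), spread vertically within its list only to separate the points, with called genes in red and named and the list's median as a black line. The calls are *Esm1* and *Angpt2*, *Ndrg1*, and *Ccbe1*, and the medians lie between -0.18 and 0.15.

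Markers of the cells that neighbour LSECs were read beside these values. Of 9 Kupffer cell markers 8 were tested, all lower in mean and 7 called lower (0.932% of all tested genes), with sums of 560 to 605 CPM in WT and 228 to 258 CPM in *Txnip*-/- LSECs. *Marco* and *Cd5l*, macrophage scavenger and secreted proteins, fell by 1.07 and 0.99 on the log2 scale. Of 10 stellate cell markers 9 were tested, all higher in mean, and *Dcn* and *Acta2*, a matrix proteoglycan and smooth muscle actin, were called (*Hand2*, named after the calls were seen, also by DESeq2 and limma-trend), where 0.509% of all tested genes were called higher. Their sum was 32.5 to 37.7 CPM in WT and 62.1 to 73.4 CPM in *Txnip*-/- LSECs, moving in the same direction as *Pgf*, *Vegfc* and *Ccbe1*. The part of these cells in the values of the VEGF genes was not tested. Hepatocyte markers summed to 49.7 to 53.1 CPM in WT and 55.5 to 58.7 CPM in *Txnip*-/- LSECs with no call among 6 tested by edgeR (1 at an unadjusted p under 0.05), nor by DESeq2 or limma-trend, and cholangiocyte, neutrophil and lymphocyte markers each summed to under 7 CPM in every library, with *Retnlg*, *Mpo*, *Cd3e*, *Ms4a1* and *Nkg7* at 0 in all 6. Of 8 pan-endothelial markers, all were lower in mean, the same direction as the receptors. None was called by edgeR, DESeq2 or limma-trend (3 at an unadjusted p under 0.05 in each). Without TMM factors, their sum was 2848 to 3155 CPM in WT and 2486 to 2746 CPM in *Txnip*-/- LSECs. The factors were 1.056 in WT replicates 1 and 2, 0.9762 in WT replicate 3 and 0.9635 to 0.9808 in *Txnip*-/- libraries. Dividing by them would make the ranges of the sums overlap, but all 8 markers remained lower in mean on that scale. On the TMM scale of the receptor values, 3 of the 8 were lower without overlap (8.94% of all tested genes). All 12 LSEC markers were lower in mean, 8 of them without overlap (8.94% of all tested genes). An unadjusted p under 0.05 (edgeR) was held by 10 of them and by 11.5% of all tested genes. Of these markers 3 were called lower, where 0.932% of all tested genes were.

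Over the 6 libraries the genes whose log2 CPM most resembled that of *Kdr* were *Polr3a* (Pearson r = 0.989), an RNA polymerase III subunit gene, *Id3* (0.982), a helix-loop-helix regulator, and *Zfp212* (0.981), a zinc finger gene. They were the top of 8024 genes averaging at least 10 CPM, of which 54 had r above 0.9, and none of the other VEGF genes was among the first 3. The 6 points share 2 genotypes and the same library scaling, so this is a description of these libraries.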

How the data were processed

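RNA of LSECs was measured by single-end QuantSeq 3′ mRNA-Seq in 3 *Txnip*-/- and 3 WT libraries. The authors aligned the reads with Bowtie2, to mm10 per the submitters' processing notes, and deposited whole-number counts per gene symbol from unique and multiple alignments (bedtools). Their versions, annotation and use of strand are not given in the sources used here. No row lacked a symbol, and none of the 9 genes is repeated. The exons of other genes did not overlap the last 500 exonic bases of any of the 9 (GENCODE M21), and 0 pseudogenes carry their names.

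In R 4.3.3, edgeR 4.0.16 was run on the counts (filterByExpr, 11583 genes; TMM; glmQLFit and glmQLFTest; genotype as the single term) with Benjamini-Hochberg adjustment over all tested genes. A call takes a fold change beyond 1.3 together with an adjusted p below 0.05, the study's thresholds with its log fold change read as a fold. Standard errors were derived from the F statistics. The script was tested on simulated counts. Alternatives were DESeq2 1.42.0, limma 3.58.1 (limma-trend, prior count 2), other scalings, filters and thresholds, a replicate block and each library left out. Log2 CPM for the likeness to *Kdr* used a prior count of 2.

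Libraries held 9147764 to 10193952 counts, so 3 counts, taken as the floor, equal 0.294 to 0.328 CPM; this covers counting error only. WT replicates 1 and 2 had a chi-square per degree of freedom of 3.93, more than sampling noise, and were kept apart. They were closer to each other than the pairs of *Txnip*-/- libraries, at 8.32 to 9.57. Genes named were the 9 genes, *Txnip*, every called gene and the 2 most abundant of each pathway list, the 2 most abundant markers of each list where a value touches a result, and 3 genes most like *Kdr*. The members and lists were chosen with earlier results of these data known.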

Additional observations from a re-analysis of the deposited data

How the results depend on the processing

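None of the 9 VEGF genes was called under any of 16 alternatives each, and 134 of 144 values kept their direction. The other 10 changed sign. *Vegfa* became -0.026 with no normalization factors, -0.069 with a separate term for WT replicates 1 and 2, and ran from -0.044 to 0.20 with each library left out. *Vegfb* became 0.075 with that term and ran from -0.10 to 0.054 with each library left out. With the same term, chosen after seeing the data, *Flt4* became 0.037, *Nrp1* 0.21 and *Nrp2* 0.096. The cause was not tested. With each library left out, the log2 difference ran from -0.25 to 0.036 for *Flt1*/*Kdr*, -0.0070 to 0.11 for *Nrp2*/*Nrp1*, -0.25 to 0.099 for *Vegfb*/*Vegfa*, 0.65 to 1.12 for *Vegfc*/*Vegfa* and 0.11 to 0.43 for *Pgf*/*Vegfa*.

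Over all genes, the 167 calls became 301 with no filter on low counts, 57 with a log2 fold change above 1.3 as the threshold, and 89 to 301 with each library left out, the highest without WT replicate 3. DESeq2 called 214. With no normalization factors 35 calls were higher and 145 lower, against 59 and 108. With the replicate number as a block there were 108 calls, and *Angpt2*, *Ndrg1* and *Ccbe1* were no longer called (adjusted p = 0.0722, 0.0757 and 0.103, edgeR). The numbers did not pair the libraries: after subtracting genotype means, libraries with a shared number correlated at -0.03, 0.02 and -0.05. *Vegfc* held 23 to 58 counts a library and *Figf* 1 to 14, the fewest of the VEGF genes.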
